A study of Mus musculus with 8 samples.

Results

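Splenic dendritic cells that did not express the chemokine CCL17 were described here by their own expression levels. They were taken from CCL17E/+ mice on a C57BL/6 background, aged 2 to 5 months, in which EGFP reports Ccl17, and 15 h after the mice had received 100 µg of LPS, the endotoxin of gram-negative bacteria. The cells were sorted as NK1.1-CD8alpha-CD11c+CD11b+ and EGFP-negative. They fill 4 of the 8 Illumina BeadChip arrays of the series. The other 4 arrays hold EGFP-positive cells of the same surface phenotype from mesenteric and peripheral lymph nodes (LN) of the same genotype, strain and age after the same LPS treatment. Both groups thus carry the reporter allele and had received LPS, and neither wild-type nor untreated cells stand beside them here. CCL17 status and organ change together and cannot be told apart. Per the series text both organs came in parallel from the same mice. How many mice went into a sort, and whether they were pooled, is not stated, so p-values describe only the spread between samples, which may be technical.

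A probe was counted as expressed in the splenic cells when its detection p-value was under 0.01 on all 4 splenic arrays. That held for 11803 of 45281 probes (26.1%), whereas 28878 probes (63.8%) were detected on 0 of the 4. Probes with 1 gene symbol gave 7032 of 19057 named genes (36.9%) with at least 1 probe detected on all 4 arrays, 1925 genes detected on some and 10100 (53%) detected on 0. Each gene is represented by its brightest such probe, and its level is the mean of the quantile-normalized log2 intensity. Levels ran from 5.69 to 15.74, with a median of 8.78. Probes differ in how strongly they bind: where a gene had more than 1 detected probe (2308 genes), the brightest lay a median of 1.45 log2 above the dimmest. The order of genes is therefore an order of signals, not of transcript numbers. In sorted bulk samples, fewer cells of a type and less RNA per cell cannot be told apart.

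Dendritic cells take up antigen, cut it into peptides and show these to T cells on MHC molecules. Endotoxin, read by Toll-like receptors, turns them from sampling cells into mature ones: they raise MHC and costimulatory molecules, gain the lymph node homing receptor CCR7, and secrete cytokines and chemokines. Interferons produced in the same response act on dendritic cells through JAK and STAT proteins and switch on antiviral genes and the CXCR3 ligands that attract effector T cells. In the spleen, CD11b+ dendritic cells are the subset best known for presenting antigen to CD4 T cells.

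The quality of the arrays bears on every value below. Mean bead intensity was 510, 483, 345 and 239 in splenic replicates 1 to 4, and between 13743 and 14473 probes were detected per array. Replicates 1 and 2 lay on one BeadChip and replicates 3 and 4 on another, in both organs. Replicate 4 stood apart: its mean correlation with the other splenic arrays over the detected genes was 0.872, against 0.936 to 0.946 for replicates 1 to 3 and 0.968 to 0.974 for the LN arrays. It lay more than 1 log2 from the mean of the other 3 splenic arrays in 29.4% of the detected genes, against 1.52% to 4.07% for the other replicates. Of the genes given below by their mean alone, replicate 4 lay more than 1 log2 above the mean of the other splenic arrays in Spi1, Irf4, Batf3, H2-Ob, Marchf1, Tap1, Ifngr2, Oas3, Tor3a, Tnf and Ebi3. It lay more than 1 log2 below it in Id2, Irf9, Ly96, Ccl4, Il1rn, Il6, Vcam1, Axl and Timd4.

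The sort could be checked only in part on the arrays. Ccl17, the ligand of CCR4, had levels of 5.59, 6.61, 6.65 and 6.12 in splenic replicates 1 to 4, a mean of 6.24 ± 0.50 (SD, n = 4) near the bottom of the detected genes (percentile 4.29), against a mean of 12.51 ± 0.33 (SD, n = 4) in LN cells. It was thus detected on every splenic array, but at a dim level, and this is the gene the cells were sorted on. Itgax, which encodes CD11c, was detected on 3 of 4 splenic arrays at 6.07, 5.45, 6.72 and 6.86. Itgam, which encodes CD11b and was selected for in the sort, was detected on 0 of 4, as were Cd8a and Klrb1c, which encode the CD8alpha and NK1.1 that were selected against. A probe at background says only that its signal was not above that of the negative control beads.

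Of 16 genes shared by dendritic cells in general, 14 were detected on all 4 splenic arrays, with a median level of 10.20. Besides the MHC class II genes described below, the brightest were Dpp4, which encodes the peptidase CD26, at 13.20 ± 0.26 (SD, n = 4), and Kit, the receptor of stem cell factor, at 12.72 ± 0.25 (SD, n = 4). The transcription factors that define the lineage were dimmer: Zbtb46, largely restricted to classical dendritic cells among immune cells, had a level of 9.63, Irf8 9.53 and Spi1, which encodes PU.1, 8.24. Flt3, the receptor that drives dendritic cell development, was detected on 1 array. Itgax was the other member that failed, so the label rests on the remaining genes.

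Genes known from the splenic CD11b+ subset were detected on all 4 arrays in 10 of 18 cases (55.6%), and genes of the CD8alpha+ cross-presenting subset in 5 of 13 (38.5%), against 36.9% of all named genes. On the CD11b side were Sirpa, an inhibitory receptor for CD47, at 12.35, 12.30, 12.78 and 11.56 in replicates 1 to 4, Esam, an adhesion molecule of the Notch2-dependent population, at 11.02, 11.19, 11.15 and 10.42, and Dtx1, a Notch target, at 10.21, 10.13, 9.91 and 9.81. All 3 genes were somewhat dimmer on replicate 4 than on the other arrays, whereas over the 10 detected genes of the list replicate 4 lay a median of 0.57 log2 above the mean of the others, with 3 genes more than 1 log2 above it and 0 below. Notch2 itself, Clec12a, Rbpj and Mgl2 were detected on 0 of 4. The transcription factors Irf4 and Klf4, both needed by CD11b+ dendritic cells, had levels of 9.56 and 9.15. Of the cross-presenting list, the chemokine receptor Xcr1, the receptor Tlr3, Cadm1, Naaa and Snx22 were detected on 0 of 4 along with Cd8a, and Clec9a on 3. Those detected included the transcription factors Id2 at 13.44, Batf3 at 11.95 and Irf8 at 9.53, and the uptake receptor Ly75 at 8.71.

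The 6 genes given as markers of these cells were all detected on all 4 arrays, and they spanned a wide range of signal. Cxcl9, a CXCR3 ligand that attracts effector T cells, had levels of 13.24, 13.71, 13.59 and 14.19, and Cxcl10, another ligand of CXCR3, had 13.28, 13.68, 13.87 and 13.30. Both stood near the top of the detected genes (percentiles 98.6 and 98.4) and their arrays lay within 1 log2 of each other. Fscn1, the actin-bundling protein fascin of mature dendritic cells, had 13.22, 13.21, 13.60 and 12.66. Lag3, an inhibitory receptor that binds MHC class II, had 10.75, 11.13, 11.35 and 12.62, and Tbx21, which encodes T-bet, had 8.55, 8.86, 8.84 and 10.07, both highest on replicate 4 by over 1 log2. Tlr7, the endosomal receptor for single-stranded RNA, had 9.91, 10.01, 10 and 8.82, and here replicate 4 was the lowest. Tbx21 and Tlr7 stood near the middle of the detected genes, at percentiles 55.4 and 65.9.

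These markers were chosen with the comparison to LN cells known, so their differences from LN are a description. The log2 fold of spleen over LN was 4.21 ± 0.25 (SE) for Cxcl10, 3.39 ± 0.34 for Tbx21, 2.95 ± 0.37 for Lag3, 2.92 ± 0.21 for Cxcl9 and 2.68 ± 0.37 for Tlr7, with 4 arrays per group, in a limma comparison that called 15.6% of the genes tested. In each of these genes the lowest splenic array lay above the highest LN array. The fold of Fscn1 ran the other way, at -1.01 ± 0.24, and all 4 LN arrays lay above the splenic ones. The share of all genes tested whose arrays separate in this way is not given here, so the separation is a description only. Its limma adjusted p was 0.0189, but 0.127 with median scaling, 0.205 within the second BeadChip, and 0.0505 and 0.0519 without LN replicate 1 and 3. Fscn1 was thus bright in both organs.

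**Figure D1:**
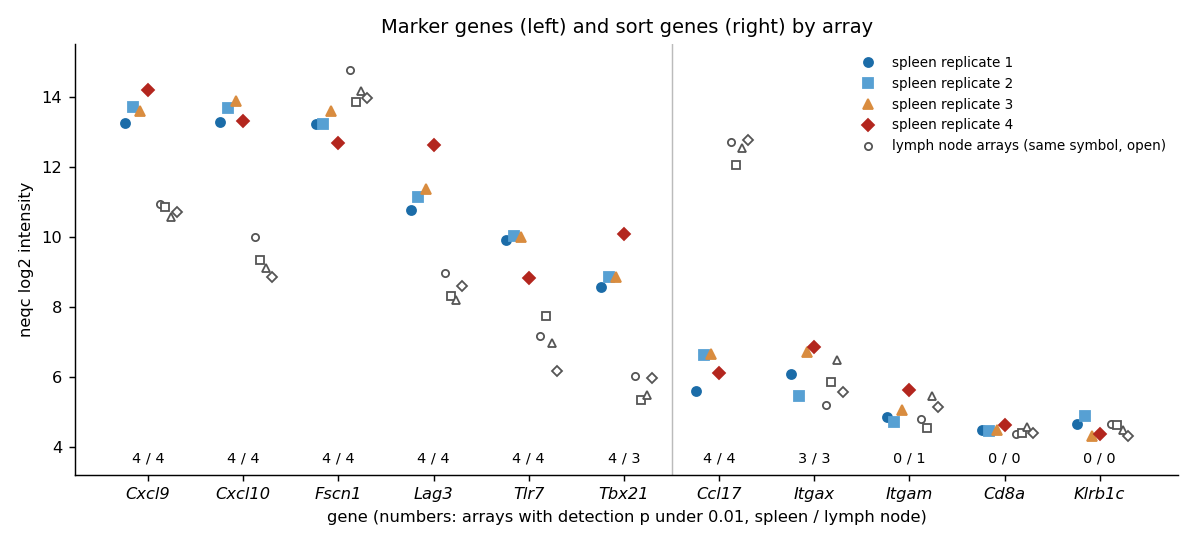
Log2 intensity of the 6 given markers (left of the grey line) and the 5 sort genes (right) on each array, with filled symbols for spleen replicates 1 to 4 and open symbols for the LN arrays of the same number. The numbers above the axis give the arrays with detection p under 0.01 in spleen and LN. Cxcl9 and Cxcl10 lie between 13.24 and 14.19 on all splenic arrays, whereas Itgam, Cd8a and Klrb1c lie near background on all of them.

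The order of genes covers only probes with 1 gene symbol. Of the 50 brightest detected probes 35 had one, and of the 100 brightest 61, so many of the brightest signals stay unnamed. Leaving ribosomal proteins aside, the brightest named gene was Actb, the cytoplasmic actin, at 15.74 ± 0.04 (SD, n = 4). It was followed by the elongation factor Eef1a1 at 15.57 ± 0.03, the ferritin heavy chain Fth1 at 15.53 ± 0.04, the actin-binding thymosin Tmsb4x at 15.34 ± 0.33 and the MHC class I light chain B2m at 15.23 ± 0.27. The sixth was Gbp2, an interferon-induced guanylate-binding protein that acts on intracellular pathogens, at 15.22 ± 0.07. Prr33 (15.21), the lysosomal protein Laptm5 (15.18), the mRNA decay factor Zfp36l1 (15.15), the secreted amino acid oxidase Il4i1 (15.14) and the metallothionein Mt1 (15.11) came next. H2-Ab1, an MHC class II chain, had 15.00, the membrane-binding Anxa2 14.98, the antiviral Ifitm3 14.97 and Zfp36, which shortens the life of cytokine mRNAs, 14.91. Between them stood 10 ribosomal protein genes, and 13 of the 50 brightest genes encode ribosomal proteins. Genes of defence and antigen presentation thus shared the top of the order with genes that every cell uses. All 15 stayed in the brightest 1% under each other normalization and without each array, but only 12 did when the mean over a gene's probes replaced its brightest probe, and Gbp2 then stood at percentile 81.1.

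MHC class II genes formed a complete group: 14 of 14 were detected on all 4 arrays, with a median level of 11.29, against 36.9% of all named genes and a median of 8.78 over those detected. H2-Ab1 had 14.39, 14.48, 15.71 and 15.43 in replicates 1 to 4, the invariant chain Cd74 had 14.23, 14.26, 15.37 and 15.56, and H2-Eb1 had 13.87, 13.93, 14.93 and 15.14. In all 3 genes both arrays of the second BeadChip lay above both arrays of the first. H2-DMa, part of the peptide editor H2-DM, had 10.81, 11.01, 11.88 and 12.14, while H2-Aa had 12.56, 12.77, 12.72 and 12.32 and did not follow. Ciita, the master activator of these genes, had 9.77, 9.36, 10.56 and 10.11. The peptide loading inhibitors H2-Oa and H2-Ob had levels of 11.44 and 9. Ctss, the protease that degrades the invariant chain, ran the other way, with 10.23, 10.21, 9.23 and 7.32. Marchf1, the ubiquitin ligase that removes class II from the surface of immature cells, was the dimmest member at 8.36.

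In 10 of the 14 class II genes both arrays of the second BeadChip were above those of the first, and in 1 both were below. Over all detected genes the corresponding shares were 26.4% and 30.8%. The median difference of the 14 genes between the BeadChips was 0.99 log2, against -0.05 over all detected genes. In LN cells hybridised on the same BeadChips, 4 of the 14 genes were above and 3 below, with a median difference of 0.23 (over all the genes, 25.9% above and 25.7% below). The limma test of the BeadChips within spleen called 0 of 7032 genes (0%), with 939 genes at an unadjusted p under 0.05. With 2 arrays against 2 it has little power for differences of this size, and the absence of calls says nothing about the class II genes. The BeadChip was used only as printed in the labels, and sort or animal differences between the replicates were not tested.

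MHC class I genes were detected in 18 of 19 cases with a median of 12.41, the exception being the chaperone Canx. After B2m the brightest were the heavy chain H2-D1 at 14.17 ± 0.26 (SD, n = 4), the proteasome activator Psme1 at 14.08 ± 0.24 and the nonclassical H2-T23 at 13.72 ± 0.26. The immunoproteasome subunits Psmb9 and Psmb10, with levels of 13.24 and 13.01, and the peptide transporter genes Tap2 and Tap1, with 12.58 and 12.44, were in the brightest 10% of genes too. Nlrc5, the activator of class I genes, had 12.57, 12.51, 12.61 and 13.65 and was high on replicate 4 alone. Of the 18 class I genes, 6 were above on the second BeadChip and 4 below, with a median difference of 0.12.

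**Figure D2:**
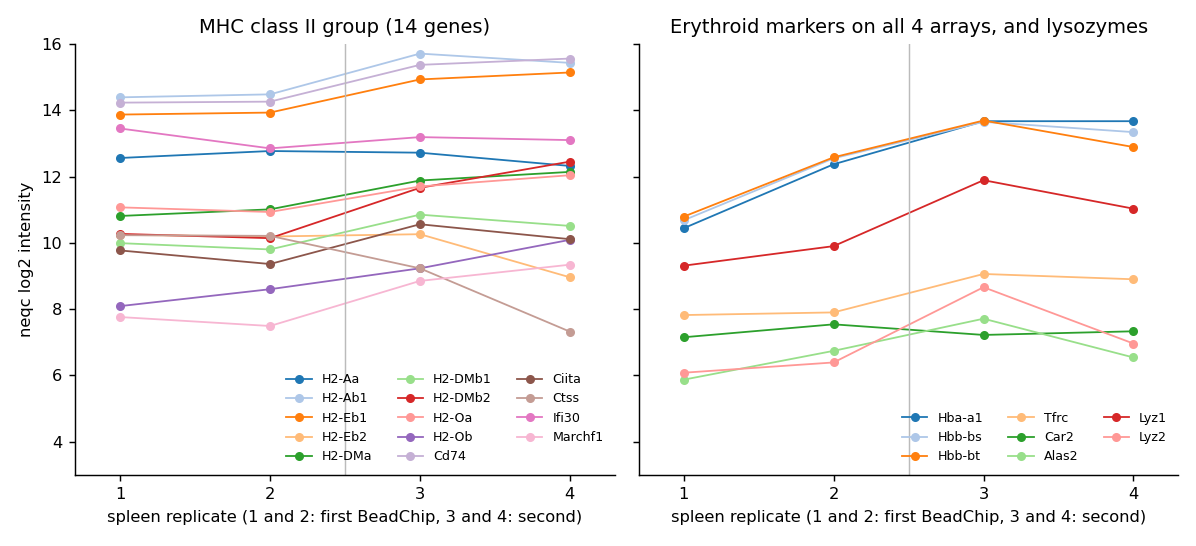
Log2 intensity of the 14 MHC class II genes (left) and of the 6 erythroid markers detected on all 4 arrays with the lysozymes Lyz1 and Lyz2 (right) in splenic replicates 1 to 4. Lines join the values of 1 gene and the grey line separates the BeadChips. H2-Ab1, Cd74 and H2-Eb1 lie at 13.87 to 14.48 on the first BeadChip and at 14.93 to 15.71 on the second, and the 3 globins lie lowest on replicate 1.

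Interferon-stimulated genes were bright as a group. Of 36 genes of the type I interferon response, 33 were detected on all 4 arrays, with a median level of 12.11, and 18 of them stood in the brightest 10% of detected genes. Ifitm3, which blocks virus entry, had 14.75, 14.83, 15.11 and 15.18. Ifit3, of the antiviral IFIT family, had 14.70, 14.71, 14.98 and 14.15, and Rsad2, the antiviral enzyme viperin, had 14.03, 14.32, 14.29 and 14.74. Isg15, a ubiquitin-like modifier, was among the most even of them, with 12.84, 12.79, 12.69 and 12.76. The arrays thus lay within 1 log2 of each other in these genes. Replicate 4 was the lowest array in Ifit3 and the highest in Ifitm3 and Rsad2, and was not set apart in Isg15. Irf7, which amplifies interferon production, was uneven, with 12.99, 13.09, 13.25 and 14.65 and the highest value on replicate 4. Irf9 and Stat2, which carry the type I interferon signal into the nucleus, had levels of 11.32 and 11.08. Within the group, Tor3a (6.44), Oas1a (7.73) and Oas3 (8.34) were dim. Ifit1 was detected on 0 arrays, Xaf1 on 1 and Ifih1, the RNA sensor MDA5, on 3.

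The interferon gamma response had 24 of 29 genes detected on all 4 arrays, with a median of 12. Gbp2 had 15.32, 15.21, 15.21 and 15.16, and Cd274, which encodes the T cell inhibitor PD-L1, had 14.36, 14.23, 14.14 and 14.08. Both were nearly level over the arrays, with SDs of 0.07 and 0.12. Irf1 had 14.45, 14.41, 14.18 and 12.71, and Jak2, the kinase of the interferon gamma receptor, had 13.91, 13.98, 13.90 and 13.04. In both genes replicate 4 lay below the others, by more than 1 log2 for Irf1. Stat4 had 13.03, 12.75, 12.80 and 14.18, highest on replicate 4. The GTPases Irgm1 and Igtp had levels of 13.70 and 12.92 and the tryptophan-degrading Ido1 9.80. Nos2, the inducible nitric oxide synthase, was detected on 0 of 4, as were Iigp1, Cxcl11 and Il12rb1.

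The ligands of these responses gave little signal. Ifnb1, Ifna4 and Ifnl3 were detected on 0 of 4 splenic arrays and Ifng on 1. Among the receptors, Ifngr2 and Ifngr1 had levels of 10.29 and 9.66 and Ifnar2 7.08, while Ifnar1 and Ifnlr1 were detected on 0 of 4. The samples give 1 time, 15 h after LPS, so earlier levels are not known from them.

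The promoter windows of some of the brightest of these genes, though not of Cd274, Ifitm1, Irf1 or Jak2, hold the sequence element that interferon-stimulated genes are known for. The core of the interferon-stimulated response element, GAAA and, after any 2 bases, GAAA again, was searched on both strands of the RefSeq windows from 250 bases before to 50 bases after each annotated start (mouse build GRCm38.p6). It was present in 11 of 30 windows (36.7%) of the type I response genes detected on all 4 arrays, of which 24 of 33 had a window. It was also in 10 of 24 windows (41.7%) of the interferon gamma response genes, and in 3.44% of all 32851 windows. Among the ribosomal proteins it was in 5 of 48 windows (10.4%). The lists share some genes, and list members were picked as interferon-responsive. The windows of Cxcl10, Ifit3 and Gbp2 are printed to show the match, in capitals, in 3 of the bright genes, and that of Cxcl9 because this equally bright marker has no match in the window. Capitals mark these matches on the printed strand or, as their reverse complement, on the other strand.
Cxcl10, chr5:92348840-92349139, minus strand: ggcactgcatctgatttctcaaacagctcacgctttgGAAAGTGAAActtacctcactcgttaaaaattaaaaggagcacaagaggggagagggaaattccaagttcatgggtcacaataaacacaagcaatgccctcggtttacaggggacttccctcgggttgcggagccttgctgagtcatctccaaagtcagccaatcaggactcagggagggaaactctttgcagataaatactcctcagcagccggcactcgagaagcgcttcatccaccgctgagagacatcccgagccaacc
Ifit3, chr19:34583279-34583578, plus strand: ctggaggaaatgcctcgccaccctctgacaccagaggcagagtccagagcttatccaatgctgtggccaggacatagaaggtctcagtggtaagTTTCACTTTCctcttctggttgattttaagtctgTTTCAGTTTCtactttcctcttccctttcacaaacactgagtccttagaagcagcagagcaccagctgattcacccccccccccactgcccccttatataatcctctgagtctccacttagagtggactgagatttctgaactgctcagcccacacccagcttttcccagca
Gbp2, chr3:142620413-142620712, plus strand: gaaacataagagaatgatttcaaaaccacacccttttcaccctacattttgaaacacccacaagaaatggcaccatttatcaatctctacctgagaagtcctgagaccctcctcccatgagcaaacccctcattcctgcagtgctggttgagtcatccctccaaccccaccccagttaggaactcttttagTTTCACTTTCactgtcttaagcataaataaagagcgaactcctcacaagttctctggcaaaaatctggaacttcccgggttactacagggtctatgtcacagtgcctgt
Cxcl9, chr5:92328030-92328329, minus strand: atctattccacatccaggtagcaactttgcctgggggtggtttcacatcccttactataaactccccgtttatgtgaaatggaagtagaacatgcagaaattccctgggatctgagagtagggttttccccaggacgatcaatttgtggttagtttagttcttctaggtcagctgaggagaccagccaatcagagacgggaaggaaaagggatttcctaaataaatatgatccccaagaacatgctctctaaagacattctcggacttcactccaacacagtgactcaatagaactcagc

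In these windows the first base of the match lay 213 bases before the annotated start in Cxcl10 and 59 bases before it in Gbp2, and Ifit3 held 2 matches. A match of letters is a description, not a bound site, and its absence from the Cxcl9 window draws no statement about factors there. Over the detected genes as a whole the match was most frequent in the brightest group, and its change with level was not tested. It was present in 3.2%, 2.63%, 3.27%, 3.77% and 4.43% of windows over 5 equal groups of detected genes from the dimmest to the brightest, and in 3.31% for genes detected on 0 arrays. Other features of the windows differed between detected and undetected genes. The median GC content was 60.7% for genes detected on all 4 arrays, against 53.7% for genes detected on 0, with a median of 21 and 7 CpG dinucleotides per window. The letters TATAAA were present in 7.22% of the windows of genes detected on all 4 arrays, against 16.3% of those detected on 0.

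**Figure D3:**
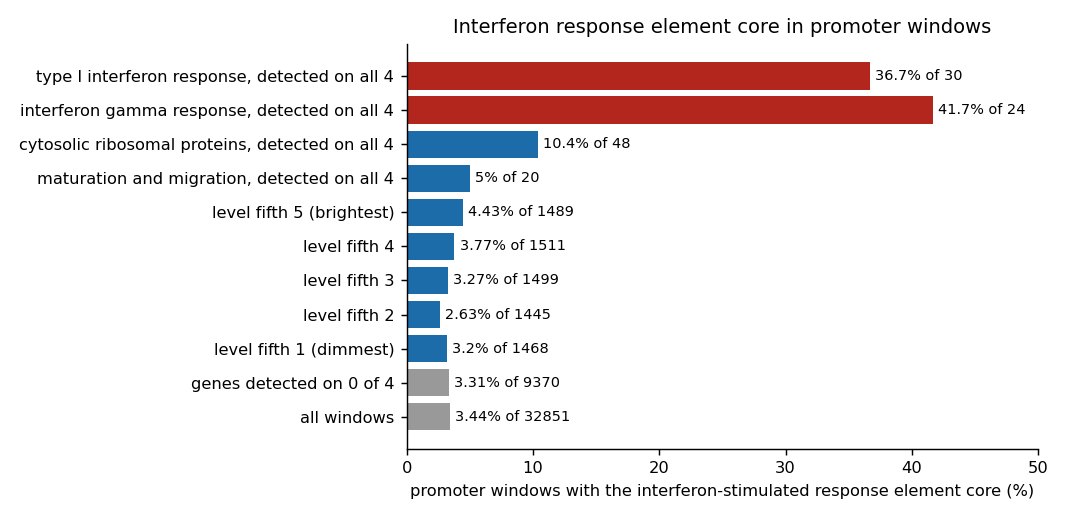
Share of promoter windows (horizontal axis, percent) that hold the core of the interferon-stimulated response element, for gene groups and for 5 equal groups by level in the splenic cells (vertical axis), with the number of windows beside each bar. The interferon groups stand at 36.7% and 41.7%, the ribosomal proteins at 10.4%, and the 5 groups by level at 2.63% to 4.43%, against 3.44% of all windows.

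Maturation genes were bright as well. Of 28 genes of maturation and migration, 23 were detected on all 4 arrays, with a median of 12.55. Il4i1 led them with 14.98, 14.77, 15.24 and 15.58, followed by the adaptor Samsn1 with 14.56, 14.36, 14.41 and 14.41 and the signalling adaptor Traf1 with 14.25, 14.38, 14.17 and 14.53. These were high on every array. Ccr7, the receptor that guides dendritic cells into T cell zones, had 12.52, 12.32, 12.12 and 12.47. Ccl22, a CCR4 ligand like CCL17, was the only member detected on 0 of 4. Of 22 costimulatory and checkpoint genes, 18 were detected, with Cd83 at 13.09, Cd40 at 12.95, Icam1 at 12.61 and Cd80 at 11.89. Cd86, a CD28 ligand, had 14.05, 13.58, 13.49 and 11.70, and Cd40 had 13.33, 13.35, 13.18 and 11.93, both lowest on replicate 4 by over 1 log2. Of the CD28 family ligands on the inhibitory side, PD-L1 was bright as given above, whereas Pdcd1lg2, which encodes PD-L2, had a level of 7.90.

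Among secreted signals, 10 of 26 chemokines were detected on all 4 arrays (38.5%, close to the 36.9% of all named genes), and the other 16 on 0. Ccl5, a chemokine that attracts T cells, was the brightest with 15.34, 15.24, 14.75 and 13.96, and Cxcl9, Cxcl10, the CXCR6 ligand Cxcl16 (12.64) and Ccl4 (12.62) followed. Ccl5 was lower on both arrays of the second BeadChip. The monocyte attractants Ccl2 and Ccl7 and the CCR7 ligand Ccl19 were among those detected on 0 arrays. Of 28 cytokines 12 were detected (42.9%), led by Il1b with 14.09, 13.70, 13.39 and 13.08, Il15 (12.60), the antagonist Il1rn (11.54) and Osm (11.16). Tnf and Il6, early products of the LPS response, had levels of 8.18 and 7.06, and Il10, Csf2 and Il1a were detected on 0 of 4. Ebi3 and Il27, the chains of IL-27, had levels of 10.74 and 8.03, while Il12a was detected on 2 arrays and Il23a on 1.

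Receptors for attractants were detected in 7 of 26 cases. Behind Ccr7 stood Gpr183, the oxysterol receptor that positions splenic CD11b+ dendritic cells, with 11.81, 11.72, 11.81 and 12.42, and Ccrl2, a chemerin-binding receptor, with 12.20, 11.94, 10.78 and 10.81. Ccr6, Cxcr4 and Cxcr5 had levels of 10.66, 10.29 and 10.08. Ccr2, Cxcr3, Xcr1, Ccr4 and S1pr1 were among 17 receptors detected on 0 of 4, so the arrays gave signal for the CXCR3 ligands but not for Cxcr3. Of 30 cytokine receptors 22 were detected, with Il10ra at 12.44 ± 0.23 (SD, n = 4) the brightest. Il7r had 12.89, 12.40, 12.03 and 10.36 and was lowest on replicate 4.

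Innate sensing genes were detected in 18 of 25 cases for the Toll-like receptor group and in 15 of 18 for the cytosolic sensors. The adaptor Myd88 had a level of 12.25, and Unc93b1, which carries nucleic acid receptors to endosomes, had 11.68, 11.60, 11.96 and 12.98. Tlr13, a receptor for bacterial ribosomal RNA in mice, was the brightest receptor with 11.51, 11.10, 11.05 and 9.84. These values again differ mainly on replicate 4, up in Unc93b1 and down in Tlr13. Tlr4, the LPS receptor, was detected on 1 of 4 arrays, while its partners Ly96, which encodes MD-2, and Cd14 had levels of 9.17 and 7.89. Tlr3, Tlr8 and Tlr12 were detected on 0. The inflammasome protease Casp1 had 13.13 ± 0.16 (SD, n = 4) and the peptidoglycan sensor Nod1 12.27 ± 0.05, while Nlrp3 was detected on 0 of 4.

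Among signalling genes, 16 of 17 of the NF-kappaB pathway were detected, with a median of 11.50. Relb, of the noncanonical branch, had 12.79, the inhibitor Nfkbia 12.70 and the deubiquitinase Tnfaip3 12.17. Of 23 C-type lectins and other uptake receptors 6 were detected (26.1%, against 36.9% of all named genes), with a median of 7.69, below the 8.78 of all detected genes. Clec4a1 had 7.69, 8.41, 10.13 and 8.67 and Clec4a3 7.12, 7.11, 8.67 and 7.14, both highest on replicate 3. Lysosomal genes, which process what is taken up, were detected in 21 of 24 cases with a median of 11.91. Of the Fc receptor group, 6 of 12 were detected, led by the signalling chain Fcer1g at 13.92 ± 0.35 (SD, n = 4).

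**Figure D4:**
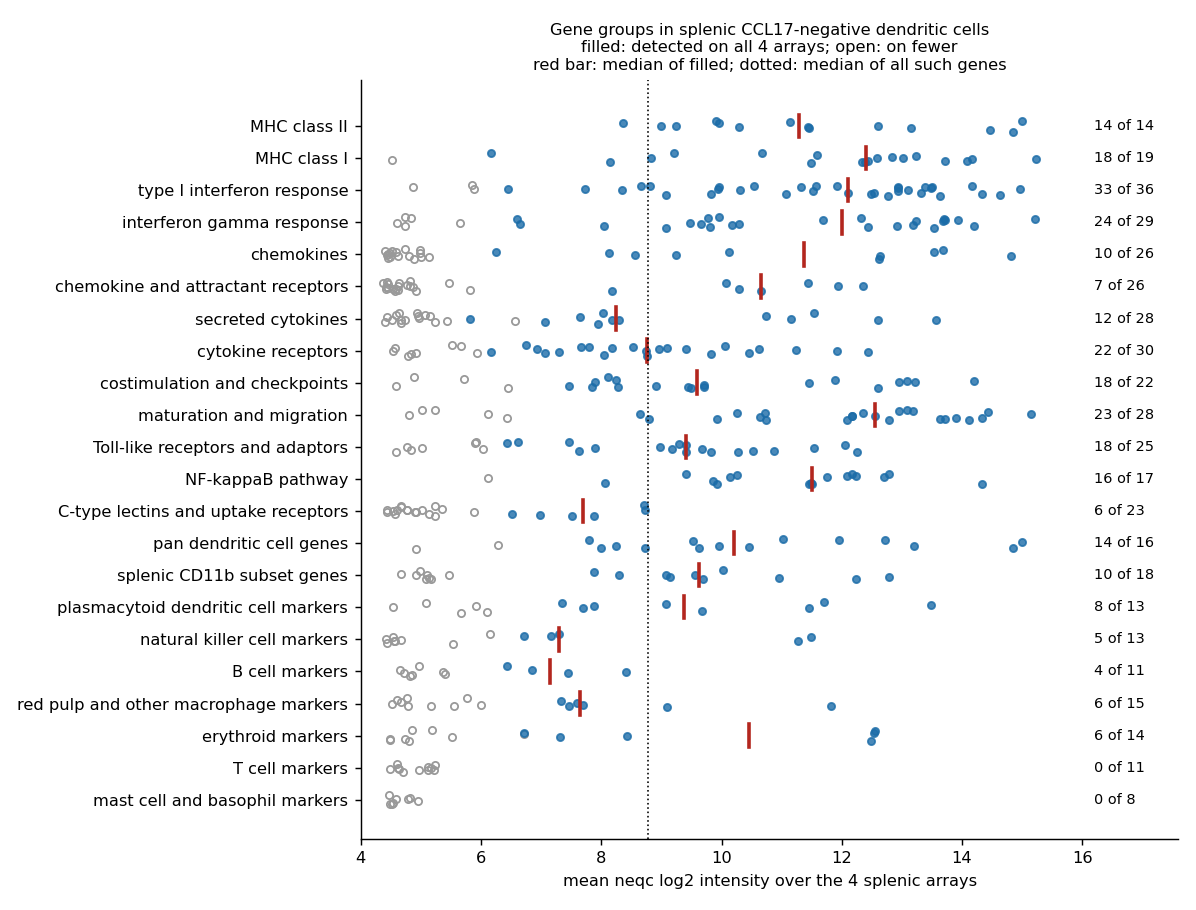
Mean log2 intensity over the 4 splenic arrays (horizontal axis) of each gene with a probe in 22 gene groups (vertical axis). Filled points were detected on all 4 arrays and open points on fewer, red bars are medians of the filled points, and the dotted line is the median of all detected genes, 8.78. Maturation, MHC class I and interferon groups have medians of 12 to 12.55, and the T cell and mast cell groups have no filled point.

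Markers of other cell types were measured to see what else the sorted samples could hold. None of 11 T cell, 8 platelet or 8 mast cell and basophil markers was detected on all 4 arrays, with Cd3e on 1 and Cd3d, Cd3g and Cd247 on 0. Of 11 B cell markers 4 were detected (36.4%, close to the 36.9% of all named genes), led by Cd79b at 8.41, while Ms4a1 and Pax5 were at 0 arrays. Of 10 monocyte markers 3 were detected (30%), with Ccr2, Vcan and F13a1 at 0 arrays. Of 11 neutrophil markers only Lcn2 was detected on all 4, at 10.46, and 3 were detected on the other arrays when replicate 4 was left out. Stromal and endothelial markers were detected in 1 of 13 cases, Pecam1 at 6.82. The part of such cells in the results was not tested.

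Several lineage genes were bright all the same. Prf1, the pore-forming perforin of killer cells, had 11.23, 10.95, 11.71 and 12.03, and Klrd1, which encodes the receptor chain CD94, had 11.23, 11.01, 11.49 and 11.34. Both were thus in the brightest 20% of detected genes, while the defining natural killer genes Ncr1, Eomes and Klrb1c were detected on 0 of 4. Il18rap and Ctsw were detected on all 4 at 7.30 and 7.16. In all, 5 of 13 natural killer markers were detected on all 4 arrays (38.5%, close to the 36.9% of all named genes). These 5 summed to linear intensities of 4530 to 7220 in spleen and 3730 to 6120 in LN. Of 6 tested against LN, 3 were called higher in spleen and 0 lower, with a median log2 fold of 0.9. Over all genes tested 7.59% were higher and 7.99% lower. Spic, the transcription factor of red pulp macrophages, had 12.06, 11.50, 11.82 and 11.91. Of 15 markers of red pulp and other macrophages 6 were detected on all 4 arrays (40%, against 36.9% of all named genes). Besides Spic, Adgre1 had 9.09, Axl 7.70, Timd4 7.59 and Vcam1 7.33. Slc40a1 was detected on 1 array and Cd163 and Cd5l on 0. Of 13 plasmacytoid dendritic cell markers 8 were detected (61.5%, against 36.9% of all named genes). They summed to linear intensities of 16100 to 35800 in spleen and 5850 to 7350 in LN. The splenic sums are weighted to the brightest marker, the interferon-stimulated Irf7, at 12.99, 13.09, 13.25 and 14.65 in replicates 1 to 4. The highest sum was that of replicate 4, so the sums do not give the level of the dimmer markers. Of the 8, 5 were called higher in spleen, against 7.59% of all genes tested. The 8 include Lag3 and Tlr7, given markers that were chosen with this comparison known. They also include Irf7 and Bst2, which belong to the type I interferon group too. The count is therefore a description. The part of plasmacytoid cells in the folds of the given markers was not tested. The brightest of these markers were Irf7, Tcf4 (11.70), Lag3 and Tlr7, and Bst2 had 9.07. Siglech, the receptor most particular to plasmacytoid cells, was dim with 7.35 and Ccr9 was detected on 0.

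The globins were the widest-spread markers of other cell types detected on all 4 arrays. Hba-a1 had 10.44, 12.37, 13.67 and 13.67, Hbb-bs had 10.68, 12.55, 13.65 and 13.34, and Hbb-bt had 10.79, 12.58, 13.69 and 12.89. Replicate 1 was lowest and replicate 2 next in all 3 genes. Hbb-bs and Hbb-bt are nearly identical, as are Hba-a1 and its copy, so their separate levels are uncertain. On LN arrays these probes lay between 4.72 and 6.73 and were detected on 3 of 4. The 6 detected erythroid markers of 14 summed to linear intensities of 5230, 17900, 40000 and 31700 in splenic replicates 1 to 4, and to 1620 to 2310 in LN. Erythroid transcription factor Gata1 was detected on 0 arrays and Klf1 on 1. The sums were lower on both arrays of the first BeadChip than on those of the second, as were 10 of 14 class II genes, and the part of erythroid RNA in that difference was not tested.

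The spread over the 4 splenic arrays had a median SD of 0.40 log2. Over 6811 genes detected on all arrays of both groups, it was 0.40 in spleen and 0.25 in LN and larger in spleen in 5215 genes (76.6%). Without replicate 4 the splenic median was 0.21. The SD was over 1 in 314 genes (4.47%) and under 0.2 in 1168 (16.6%), and it varied little with level, from 0.35 in the brightest 20% of genes to 0.43 in the second dimmest 20%.

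The widest spread belonged to Cap1, a regulator of actin turnover, with 6.66, 5.71, 9.42 and 10.10 in replicates 1 to 4. Hnrnpl, a splicing factor, had 10.16, 9.16, 12.40 and 13.18, and in both genes the second BeadChip's arrays were high. Tgfb1, a regulatory cytokine, had 6.35, 6.74, 8.26 and 10.44, the elongation factor Eef2 had 7.79, 7.5, 8.94 and 11.29, and Inf2, a formin, had 8.92, 8.50, 9.31 and 12.09. These 3 genes were highest on replicate 4. The remaining 5, Sh3bgrl, Eif2s3y, Krcc1, Taok3 and Setd7, were lowest on it; Eif2s3y, a translation initiation gene on the Y chromosome, had 10.65, 10.77, 10.01 and 6.99. In 8 of the 10 genes replicate 4 was the array farthest from the median. The limma comparison with LN called 1285 of 8252 genes (15.6%) and none of the 10. Their log2 folds of spleen over LN ran from -1.53 to 0.36, with adjusted p from 0.261 to 0.998. The 10 genes were picked for a large SD over the splenic arrays, and that spread enters the error of the test. The lack of calls therefore says nothing about whether they differ between the organs. The same limma comparison within the first BeadChip alone called 1822 of 8252 genes, among them 6 of the 10. Their adjusted p was 0.0159 for Cap1, 0.0181 for Sh3bgrl, 0.000435 for Hnrnpl, 0.00272 for Eef2, 0.0046 for Setd7 and 0.0294 for Taok3. Within the second BeadChip the log2 fold had the other sign for Cap1 (0.76), Hnrnpl (0.085), Eef2 (0.57), Setd7 (-0.44) and Taok3 (-0.013). It kept its sign for Sh3bgrl (-2.215). Without splenic replicate 4 the limma comparison called 1992 of 8252 genes, among them Hnrnpl (log2 fold -1.82, adjusted p = 0.0421) and Eef2 (log2 fold -1.40, adjusted p = 0.0254). These calls use the splenic values on which the 10 genes were picked, so they too are only a description.

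Without replicate 4 the widest genes were different in kind. Cap1 and Hnrnpl stayed first, and then came the 3 globins, Lyz2 and Lyz1, the lysozymes of myeloid cells, P2ry6, a receptor for uridine nucleotides, Ear3 and Clec4a1. Lyz1 had 9.31, 9.90, 11.89 and 11.03, and Lyz2 had 6.08, 6.39, 8.66 and 6.96. Both lysozymes were highest on replicate 3, as was Clec4a1. Lysozyme probes can share transcripts, so their separate levels are uncertain.

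Replicate 4's departures went in both directions, with 890 genes (12.7%) more than 1 log2 above the mean of the other arrays and 1178 (16.8%) below it. Gene groups shared in it unevenly. In the glycolysis group 6 of 16 genes were above and 1 below, among them Gapdh with 11.77, 11.77, 11.99 and 12.87 and Pkm, the pyruvate kinase, with 11.19, 11.29, 11.70 and 12.75. In the actin group 8 of 22 were above and 3 below, whereas 3 of 48 ribosomal protein genes were above and 3 below. Where a gene had a second detected probe, the deviations of both probes were related only in part. Of 666 genes whose first probe deviated by more than 1 log2 on replicate 4, the second probe deviated to the same side in 419 (62.9%) and by more than 1 log2 in 196 (29.4%).

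**Figure D5:**
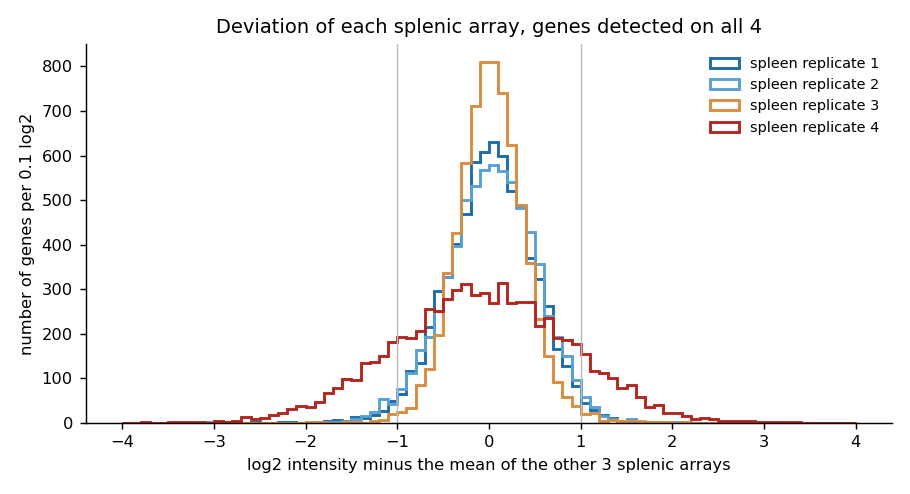
Number of detected genes (vertical axis, per 0.1 log2) by the difference of each splenic array from the mean of the other 3 (horizontal axis, log2). Grey lines mark 1 log2 on either side. Replicate 4 is the widest curve, with 29.4% of genes beyond the lines, and replicate 3 the narrowest, with 1.52%.

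At the other end, the most even genes among the brighter 50% were Stimate, an endoplasmic reticulum protein, with 10.79, 10.83, 10.86 and 10.84, Slc35e1 with 9.40, 9.46, 9.43 and 9.39, Pqlc3, Mrpl48, a mitochondrial ribosomal protein, and Zer1, each with an SD of 0.03. Their levels were within 0.1 log2 over the arrays, replicate 4 included. At the threshold of detection stood Rab11fip1 (5.69), Hs2st1 (5.70) and Nbl1 (5.70), the dimmest genes detected on all 4 arrays. The brightest genes just outside it were Wbp4 with 8.73, 9.15, 8.30 and 5.58, Fam91a1 with 8.76, 8.91, 8.21 and 5.47, and Nat2 with 8.59, 8.57, 7.80 and 5.06. All 3 missed the rule through replicate 4. Without that array 7491 genes would have met it.

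Set against LN cells, the gene groups are given here by their counts of calls and, for some, their median fold. Of the 8252 genes tested, 7.59% were higher and 7.99% lower in spleen at a limma adjusted p under 0.05, with a median log2 fold of -0.03. Of the MHC class II genes 2 of 14 were higher and 0 lower, and of class I 3 of 18 were higher and 0 lower. Of the type I interferon response 26 of 34 were higher and 0 lower, with a median fold of 1.12. Of the interferon gamma response 10 of 25 were higher and 0 lower, with a median fold of 0.58. Cell cycle genes were higher in 13 of 26 cases and lower in 0. Of the NF-kappaB pathway 1 of 17 was higher and 0 lower. Of the chemokines 4 of 15 were higher and 9 lower, and of the maturation and migration genes 1 of 28 was higher and 7 lower. Genes of cholesterol synthesis and export had 0 higher and 11 of 13 lower and a median of -1.22. Among the widely varying erythroid markers 5 of 6 were higher and 1 lower.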

How the data were processed

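RNA of 4 splenic and 4 LN samples was hybridised to mouse Illumina BeadChips. The deposited table of non-normalized values gives, per the file headers, a linear bead intensity and a detection p-value per probe and array, whose steps match 936 negative control beads. The authors also deposited processed log2 values, and each array of these had a correlation of 0.999 or more with its own log2 intensities. The submitters' processing notes list Partek. Scanner software and any background correction by the authors are not stated in what was used here.

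The neqc function (limma 3.58.1, R 4.3.3) subtracted a background estimated from the detection p-values, normalized all 8 arrays by quantiles and took log2 after an offset of 16. Plots were drawn in matplotlib 3.10.9 and tables made in pandas 2.3.3 under Python 3.11.15. Of 45281 probes, 34885 carried 1 symbol and 18 several, while 10378 are absent from the gene table and stay unnamed. By Entrez identifier 34807 matched the current mouse table. One blank line was left out. No genome was given, so coordinates are those of the RefSeq promoter table. The number of arrays limits the precision.

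Group comparisons used lmFit and eBayes (intensity trend, two-sided), and genes with a Benjamini-Hochberg adjusted p below 0.05 were called. The comparison with LN used genes with a probe detected on at least 4 of the 8 arrays, and that of the BeadChips the 7032 genes detected on all 4 splenic arrays. Both fits were tested on simulated data. The series text gives shared mice for the organs, but pairing by replicate number is an assumption. The deviations of same-numbered arrays from their group means had correlations of 0.31, 0.55, 0.31 and 0.55. Splenic replicates 2, 3 and 4 correlated best with the LN array of their own number, and replicate 1 did not. Same-numbered arrays also share a BeadChip, so these correlations cannot tell shared mice from a shared BeadChip. The main fit used no pairing, and a replicate block was an alternative.

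The 49 gene lists (899 genes, 90 without a named probe) and the members were chosen with earlier results of these data known. The naming rule took the sort and given markers, the 15 brightest genes outside ribosomal and predicted ones, up to 4 brightest members per list and up to 4 detected on 0 arrays, the 10 widest and 5 most even genes, and the 3 genes on either side of the threshold. Other list members named for their known role, and the genes widest without replicate 4, were chosen after their values were seen. Group sums and counts without replicate 4, agreement between probes and separation of the BeadChips were added after seeing the data.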

Additional observations from a re-analysis of the deposited data

Results flagged for a closer look

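A sample far from the other 3 was looked for in each named gene and in 4 measures of the arrays, by the gap of the highest or lowest array to its nearest neighbour as a share of the whole range against Dixon's 95% critical value for 4 arrays. Chance flags about 1 in 20 groups, and 825 of the 7032 detected genes (11.7%) exceeded that value. The mean correlation of a splenic array with the others stood out for replicate 4 (ratio 0.865).

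Replicate 4 was the lowest array for Krcc1 (5.88, ratio 0.901), Tlr7 (8.82, ratio 0.918), Irf1 (12.71, ratio 0.843), Jak2 (13.04, ratio 0.911), Cd40 (11.93, ratio 0.878), Irf9 (10.44, ratio 0.868), Ly96 (7.89, ratio 0.927), the replication helicase Mcm4 (10.17, ratio 0.96) and the TGF-beta mediator Smad2 (7.34, ratio 0.874). It was the highest for Irf7 (14.65, ratio 0.842), Nlrc5 (13.65, ratio 0.913), Gpr183 (12.42, ratio 0.874), the myosin Myo1g (14.31, ratio 0.886) and Xaf1 (7.06, ratio 0.999), which was detected on that array alone. Interferon genes thus lay on both sides, with Irf7 above and Irf1, Irf9 and Jak2 below on the same array. Actb had a ratio of 1 because replicates 1 to 3 share the highest quantile, 15.75, and replicate 4 had 15.68.

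Replicate 3 was the highest array for the lectin Clec4a3 (8.67, ratio 0.981) and for Arpc5, a subunit of the actin nucleator Arp2/3 (14.31, ratio 0.92).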

How the results depend on the processing

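The number of genes detected on all splenic arrays ran from 7081 to 7739 over the other detection rules and from 7082 to 7491 without each replicate, and the median SD from 0.327 to 0.513 over the other settings and from 0.211 to 0.428 without each replicate. List counts stayed within 1.5 times the reported count in 284 of 294 cases, and percentiles of named genes within the spread between arrays in 322 of 370. Calls between spleen and LN numbered 1745 with the replicate block and 1741 with BeadChip as a block, 359 within the second BeadChip, and 889 to 1992 without each array in turn, with 1992 without splenic replicate 4. Median scaling moved the median fold to -0.24 and left 940 calls, 33.5% of them higher in spleen, against 48.7% reported. The BeadChip comparison within spleen gave 0 calls under the other normalizations and in the fit of all 8 arrays, with 956 to 1872 genes at an unadjusted p under 0.05. Without replicate 1, 2, 3 or 4 it gave 2, 2, 4480 and 1167 calls, where a lone array is assumed to vary like the others. Folds over LN changed sign under some setting in 9 of the 10 widest-spread genes (not in Sh3bgrl), and the cause was not tested. They turned within the second BeadChip for Cap1 (0.76), Hnrnpl (0.085), Eef2 (0.57) and Setd7 (-0.44), within the first for Tgfb1 (-0.81), Eif2s3y (0.15), Taok3 (0.65) and Inf2 (-0.065), with median scaling for Tgfb1 (-0.24), and for Taok3 without background correction (0.067) and in the authors' values (0.069). Without each array in turn they ran from -0.77 to 0.60 for Tgfb1, -0.86 to 0.40 for Eif2s3y, -1.09 to 0.083 for Krcc1, -0.40 to 0.82 for Taok3, -0.18 to 1.03 for Setd7 and -0.44 to 0.76 for Inf2. The replicate block changed no call among the genes named with a fold. Signals near background, such as those of Ccl17 and Itgax, give levels whose size is uncertain.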
